A study of Mus musculus with 10 samples.

Results

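The RNAs described here are 1108 array probes that carry a GenBank-style accession of 1 or 2 letters and digits as their name, out of 59709 probes on a mouse long non-coding RNA microarray. They were chosen by name alone: probes of lincRNA loci, ultraconserved elements, RIKEN clones with an AK prefix, RefSeq transcripts and custom designs were left out, and 8 of the 1116 accessions that fitted this form had been set apart by name. Of those 8, 6 were called different between brown and white fat, so the 1108 are short of some accessions with large differences. Each of the 1108 probes named a different accession and had 1 spot on every array.

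The probes are known as expressed sequence tag (EST) probes, and the accession prefixes bore this out for most of them. GenBank reserved prefixes for ESTs, and 1029 of the 1108 had such a prefix (687 entered through NCBI and 342 through DDBJ). A further 48 had EMBL prefixes that were not reserved for ESTs, and 31 had prefixes of cloned cDNAs or direct submissions. The most frequent prefixes were BY with 143 probes, AA with 84, AI with 80 and BB with 70. No accession matched a name, synonym or locus tag in the RefSeq gene table of assembly GRCm38.p6, so every RNA below is called by its accession and no gene, function, sequence or position is given.

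An EST is a single-pass read from one end of a cloned cDNA. It can come from the end of a coding messenger RNA, from an unspliced precursor or from a non-coding transcript, and the read alone does not tell these apart. Brown fat burns lipid to make heat through the mitochondrial protein UCP1, whereas white fat stores lipid. Stimulation of the β3-adrenergic receptor, through which cold activates brown fat, can also raise heat-producing cells within white fat.

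RNA was measured on 10 one-colour arrays, 1 per sample. Wild-type mice fed chow received an intraperitoneal injection every day for 7 days. The groups of 2 arrays each, called biological replicates in the labels, were brown fat and white fat of mice given saline, and white fat of mice given the β3-adrenergic agonist CL316,243 at 1 mg/kg (CL below). Wild-type brown adipocytes were measured on 1 array each at days 0, 3, 5 and 7 of differentiation in culture. The labels do not say whether a tissue array was 1 mouse or a pool, which white depot was taken, or the age and sex of the mice, so the p-values measure the spread between these samples only.

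All 6 tissue arrays lay on 1 slide and all 4 cell arrays on another. Tissue and slide row, CL and slide column, and tissue against culture and slide therefore cannot be told apart. The 75th percentile of the log2 signal ran from 7.74 to 9.19 over the arrays, and both of these extremes were tissue arrays (brown fat replicate 1 and CL replicate 1). None of 39 marker genes of fat, stromal, immune, vascular and muscle cells was measured under its name, so the labelled tissues and cells were not checked against markers here.

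The accession RNAs were often dim. On each array, between 479 and 733 of the 1108 were well above background by the scanner's flag, which is 43.2% to 66.2%. Over all probes the same share ran from 55.1% to 78.3%, and over the negative control spots from 10.9% to 36.4%. The lowest count among the accessions was on brown fat replicate 1 and the highest on cells at day 3. Because the negative control spots passed the flag this often, the flag alone does not show that an RNA was present.

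**Figure D1:**
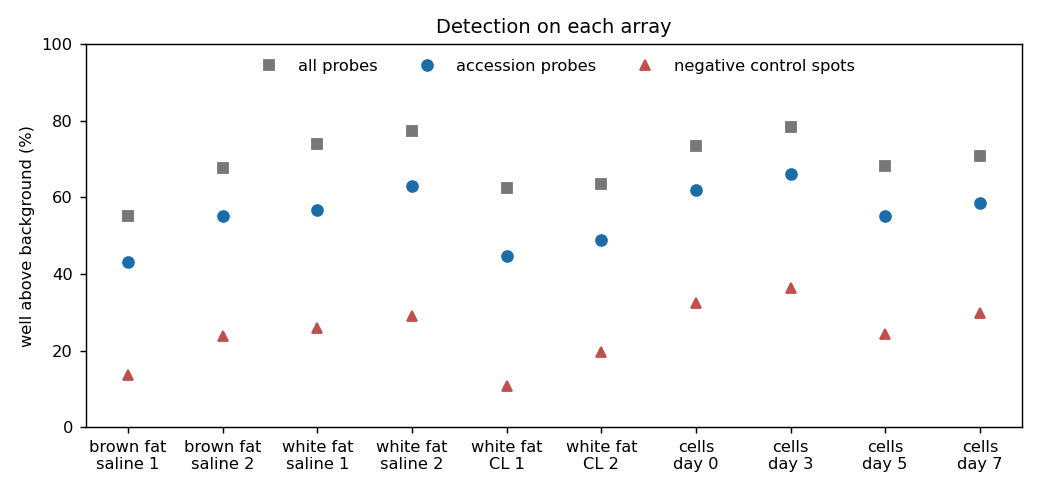
Share of spots or probes well above background (y axis, percent) on each of the 10 arrays (x axis), for all 59709 probes (squares), the 1108 accession probes (circles) and the negative control spots (triangles). On every array the accession probes lie below all probes and above the negative control spots, with 733 accessions detected at day 3 and 479 on brown fat replicate 1.

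Across the 10 arrays, 420 accession probes (37.9%) were above background on every array and 253 (22.8%) on none. The corresponding shares were 49.4% and 12.2% over all probes, 37.5% and 20.4% over 5365 lincRNA probes, and 51.6% and 12.9% over 93 AK probes. Ultraconserved elements were dimmer, with 24.9% above background on every array and 30.8% on none. The 31 cDNA or direct submissions had a larger share, with 19 (61.3%) above background on every array and 1 on none. ESTs had 36.9% on every array, and the EMBL accessions had 43.8%.

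Some accessions were above background in one saline tissue and not in the other, whatever the CL and cell arrays showed. Both brown fat arrays but neither saline white array detected 7 accessions (AA919393, AI427689, AI507332, AU035924, BQ031568, CN690322 and DV075445), which is 0.632% of the accessions against 0.298% of all probes. The opposite pattern held for 51 accessions, or 4.60% against 7.15% of all probes. The white saline arrays also had more probes above background in all, as the detection plot shows. Relative to each array's 75th percentile, the lowest log2 signal that passed the flag was -2.97 and -3.98 in brown fat. In saline white fat it was -4.27 and -4.17, so a level that passed there could fail in brown fat. Some of the 51 accessions, BY011774 among them, had readings that overlapped between brown and saline white fat.

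BP762265 and CN724408 were above background on all 6 tissue arrays and on none of the cells (0.181% of the accessions against 0.377% of all probes). On the scale used from here on, the log2 signal less that array's 75th percentile, CN724408 read -1.52 and -0.95 in brown fat, 0.53 and 1.25 in saline white fat, -1.01 and 0.48 in CL-treated white fat, and between -6.33 and -5.21 in the cells. The reverse, all 4 cell arrays and no tissue array, held for 10 accessions (0.903% against 0.457%): AI506377, BC040767, BE992060, BG174655, BM117247, BY282724, BY365902, CK373162, CK378054 and CR517939. AI506377 read -1.53 at day 0 and -3.45, -3.48 and -3.64 at days 3, 5 and 7, while its tissue readings lay between -6.25 and -4.25. Every one of the 10 remained below the 75th percentile of its array. Not all were brighter in the cells. On brown fat replicate 1, BY282724 and BY365902 read -2.99 and -3.18, above their highest cell readings of -3.14 and -3.44. BM117247 and BE992060 also overlapped with their cell readings there. The lowest signal that passed the flag on that array, -2.97, was above that of every cell array. A level that passed in the cells could therefore fail there.

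Replicate arrays agreed less well after CL than after saline. Among accessions above background on both arrays of a group, the median absolute difference between replicates was 0.26 in brown fat (465 accessions), 0.32 in saline white fat (609) and 0.70 in CL-treated white fat (468), in log2 units. Differences of at least 2-fold between replicates were found for 2.80%, 3.45% and 23.9% of them, against 3.87%, 4.13% and 29.8% of all probes above background on both arrays. CL replicate 1, the array with the highest 75th percentile, read lower than replicate 2 by a median of 0.62. The accession levels of the paired arrays correlated at r = 0.988, 0.988 and 0.974, a description over probes that differ widely in brightness.

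The first comparison asked which RNAs differ between brown and white fat after saline. It covered the 631 accessions that both arrays of some tissue group detected above background, of which 426 were above background on all 6 tissue arrays and 146 passed through 1 group alone. The other 477 were not tested. An RNA was called when limma's p-value, adjusted by Benjamini and Hochberg over all 43525 probes tested, was under 0.05.

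Brown fat differed from white fat for 60 of the 631 accessions (9.51%, against 10.4% of all probes tested), and for 48 of them the level was higher in brown fat (7.61%, against 5.53% of all probes) and for 12 lower (1.90%, against 4.87%). The calls with all arrays leaned to brown fat (80.0% higher), as did those of lincRNA probes (250 higher and 59 lower) and ultraconserved elements (24 and 7). The median difference of the accessions moved with the saline white arrays. Leaving out saline white replicate 1 took it from 0.11 to -0.10, and leaving out replicate 2 took it to 0.25. Over all probes tested these 2 fits gave medians of -0.24 and -0.05. With either of these arrays left out, the calls were too few to show a direction. With all arrays, the calls over all probes were 2409 higher and 2118 lower, and the AK probes gave 2 and 5. The median difference, brown minus white, was 0.11 over the accessions tested and -0.12 over all probes tested. In whole tissue, more cells of a type and more RNA per cell cannot be told apart.

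Among the 48 higher accessions, 37 were above background on all 6 tissue arrays, and the differences ran from 1.43 to 3.38 (2.69-fold to 10.4-fold). Of the 12 lower ones, 7 were above background on all 6 arrays, and the differences fell by 1.46 to 2.62. Signals of the compared groups did not overlap for any of the 60. Without overlap were also 70.0% of all accessions tested and 72.6% of all probes tested, so that property was common.

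By source, 54 of the 60 were ESTs (580 tested), 3 had EMBL prefixes (27 tested) and 3 were cDNA or direct submissions (24 tested). The cDNA or direct submissions were AF531172 and X53654, higher in brown fat, and FJ387503, lower. By brightness, all 18 calls among the 171 accessions with a mean tissue signal between -2 and 0 were higher in brown fat. Over all probes in that range, 705 calls were higher and 520 lower. Among the 159 accessions with a mean signal of 0 and over, 16 were higher and 7 lower, against 1229 and 792 over all probes. The share called in that range was 14.5% of the accessions and 13.8% of all probes.

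**Figure D2:**
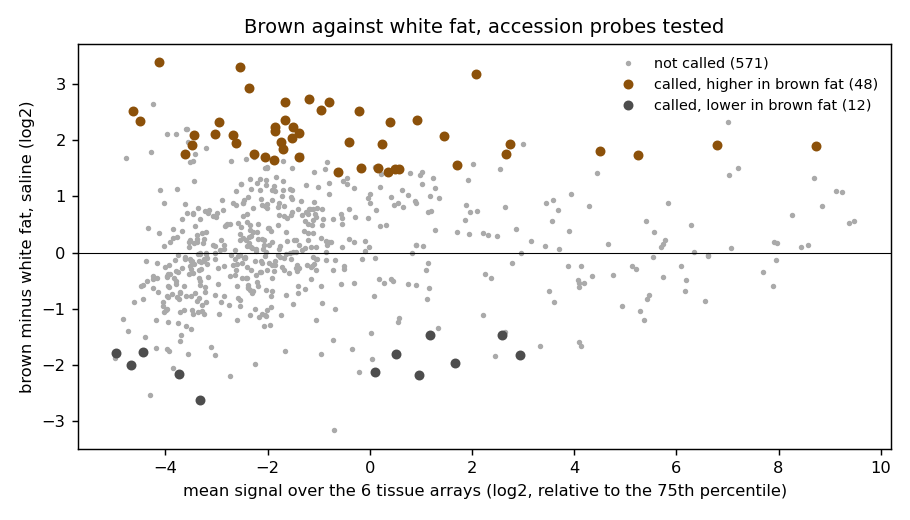
Difference between brown and white fat after saline (y axis, log2) against the mean signal over the 6 tissue arrays (x axis, log2 relative to the 75th percentile) for the 631 accessions tested, with 1 point each. The 48 called higher (brown) and 12 called lower (dark grey) lie at least 1.43 from 0, and the higher ones spread over the range of signals.

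CB523987 had the largest brown fat excess among the accessions that were above background on all 10 arrays. It read 4.20 and 3.72 in brown fat, 0.49 and 1.09 in saline white fat, and 0.75 and 2.25 after CL, so both brown arrays were above all others. The difference between brown and saline white fat was 3.17 (SE 0.55, limma adjusted p = 0.021). In the cells it read 0.46, 0.86, -0.48 and 0.56 at days 0, 3, 5 and 7, all below both brown fat arrays.

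AI427689 gave the largest difference of all. Its signal was -1.20 and -2.06 in brown fat and -5.23 and -4.78 in saline white fat, where neither array was well above background. The fitted difference was 3.38 (SE 0.43). It met the filter through brown fat alone, the group in which it was high, so this is given as a description without its p-value. Since the white level has only an upper limit, the fold was given as at least 6.04, with the white level set at the dimmest signal that the flag accepted on each array. Background correction by normexp, an alternative, brought the difference down to 1.39, a smaller fold than the bound.

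BY365805 came next with -0.06 and -1.35 in brown fat against -4.55 and -3.45 in saline white fat, where the first of these was not above background (difference 3.29, SE 0.60). CL-treated white fat lay between at -3.39 and -2.46. BB791535 read -0.28 and 0.41 in brown fat and -2.93 and -2.79 in saline white fat (difference 2.93, SE 0.57), and was not above background on either CL array. BQ031568 (-2.27 and -3.26 against -5.82 and -4.73) was below background in both white groups, and at least 2.74-fold higher in brown fat, the group through which alone it was tested. With normexp correction its difference was 0.92, a smaller fold than the bound.

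CO800403, EL964962, BY421557, AW124219 and DN176808 were above background on all 6 tissue arrays and were higher in brown fat by 2.74, 2.67, 2.67, 2.53 and 2.52. DN176808 had the closest replicates, with 1.19 and 1.13 in brown fat, -1.45 and -1.27 in saline white fat, and -0.55 and -0.36 after CL. Its difference between brown and saline white fat had an SE of 0.34 and a limma adjusted p of 0.0106. EL964962 read 1.11 and 0.23 in brown fat, -1.96 and -2.04 in saline white fat, and -1.25 and -0.92 after CL. In each of these 5 accessions both brown arrays were above all 4 white arrays.

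Among the 12 lower in brown fat, the readings split into bright and dim RNAs. BY732216 read -0.36 and 0.16 in brown fat, 1.80 and 2.34 in saline white fat and 0.31 and 1.52 after CL, a difference of -2.17 between brown and saline white fat (SE 0.50, limma adjusted p = 0.0391). DV645173 read -1.55 and -0.98 in brown fat, 0.70 and 1.04 in saline white fat and 0.73 and 0.66 after CL, so the 2 white groups overlapped and both lay above brown fat. CK346856, AI181567 and BY223493 were also bright and had differences of -1.96, -1.83 and -1.81.

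FJ387503, BU700229, AA437991, BE647426 and DV047736 were not above background on either brown array. FJ387503, a direct submission, read -2.07 and -2.79 in saline white fat and -2.39 and -2.55 after CL, and was at least 2.06-fold higher in saline white than in brown fat. BU700229 was at least 1.71-fold higher in saline white fat. With normexp correction the brown minus saline white differences of these 2 were -0.50 and -0.24, smaller folds than the bounds. For AA437991, BE647426 and DV047736 no fold could be given. Their mean saline white levels lay under the mean of the lowest signals that the flag accepted on the brown arrays. BU700229, AA437991, BE647426 and DV047736 met the filter through saline white fat alone, where they were high. With normexp correction 43 of the 60 accessions kept their call, all 5 of these lost it, BQ031568 lost its call too, and DV047736 turned to a difference of 0.06.

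**Figure D3:**
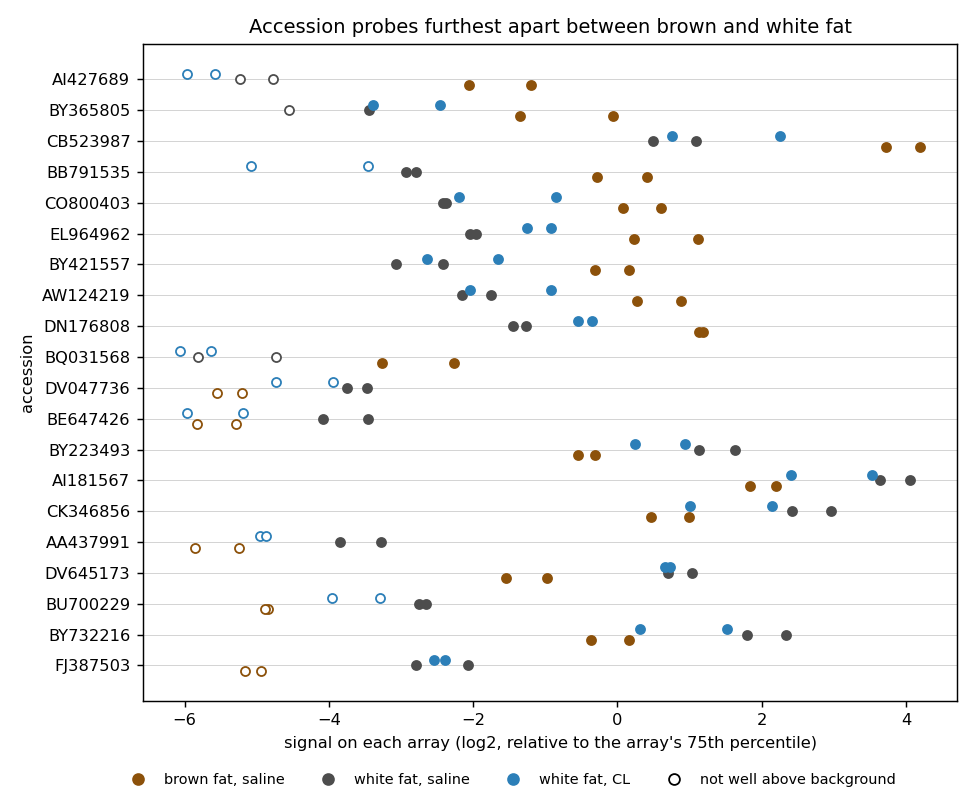
Signal on each of the 6 tissue arrays (x axis, log2, scaled to the array's 75th percentile) for the 10 accessions furthest above and the 10 furthest below white fat in brown fat after saline (y axis), with 1 point per array. Brown fat is in brown, saline white fat in grey and CL-treated white fat in blue, and open points were not well above background. Points of brown and saline white fat do not overlap in any of the 20.

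These calls depended on having both replicates of brown fat and of saline white fat. With a brown fat or saline white array left out, the accessions called were in part or wholly others than the 60. Without brown fat replicate 1 or 2, 6 and 8 accessions were called (0.902% and 1.25% of those tested, against 1.18% and 2.37% of all probes). Without saline white replicate 1 or 2, 2 and 6 were called (0.283% and 0.927%, against 0.987% and 1.96%). Without CL replicate 1 or 2, whose spread enters the same model, 199 were called in each case (30.9%, against 31.7% and 31.2%). The counts of all probes thus fell and rose with those of the accessions. None of the 60 was called in all 6 of these fits. A model of the 2 saline groups alone called 201 (31.9%, against 32.8% of all probes), 132 higher and 69 lower. Over all probes that model called 6186 higher and 8074 lower. Among the 426 accessions above background on all 6 tissue arrays, 87 were called (67 higher and 20 lower) when those probes alone were adjusted for, against 17.3% of all such probes. With the 8 accessions set apart put back, 66 of 639 (10.3%) were called, 51 higher and 15 lower.

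The second comparison asked which RNAs CL changed in white fat. With limma, 0 of the 631 accessions were called, and 0 of the 43525 probes tested. At an unadjusted p under 0.05 there were 26 accessions (9 higher and 17 lower after CL), or 4.12%, against 5.46% of all probes tested (1.96% higher and 3.49% lower). The smallest adjusted p among the accessions was 0.508. The median difference, CL minus saline, was -0.07 over the accessions and -0.08 over all probes tested.

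Both the number and the direction of these unadjusted results changed with single arrays. Without CL replicate 1 there were 76 (68 higher and 8 lower, 11.8%, against 15.8% of all probes), and the median difference was 0.27. Without CL replicate 2 there were 163 (38 higher and 125 lower, 25.3%, against 24.97%), and the median difference was -0.41. Without saline white replicate 1 or 2 the median difference was -0.26 and 0.05, against -0.18 and -0.02 over all probes tested.

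C75950 had that smallest p. It read -4.82 and -4.10 in saline white fat, the first of these not above background, and -0.62 and -2.42 after CL, a difference of 2.94 (SE 0.65). Both CL arrays were above all other arrays of the study for this accession, and it met the filter through the CL group alone.

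The 4 other accessions with the smallest p among those higher after CL were DV074327, CV562937, BU946273 and DN176808, with differences of 1.25, 1.12, 1.31 and 0.91. DV074327 was bright: it read 1.66 and 2.52 in brown fat, -0.25 and -0.30 in saline white fat, and 1.15 and 0.80 after CL. CV562937, BU946273 and DN176808 likewise lay, after CL, above both saline white arrays. None of these differences passed the adjusted threshold.

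The 5 with the smallest p among those lower after CL were BE647426 (-1.81), AA437991 (-1.35), BY790517 (-1.72), CD354001 (-1.45) and BU937478 (-1.67). All 5 were above background on both saline white arrays and on neither CL array, and met the filter through saline white fat alone. They were thus selected for being high there, and their order by p is a description. Their saline white readings lay between -4.08 and -3.04. CD354001 was at least 1.46-fold and AA437991 at least 1.03-fold lower after CL, and the remaining 3 allow no fold.

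Leaving out 1 array changed this count in 1 case. Without saline white replicate 2, BY456845 was called, with a difference of -5.00. It met the filter there through saline white replicate 1 alone, the array in which it was high, so its p-value is left out. It read -0.84 on saline white replicate 1 and -6.48 on replicate 2, and between -6.98 and -4.36 on the other 8 arrays, so the call rested on that single array. With replicates as far apart as those of the CL group, a count of 0 does not show that CL left these RNAs unchanged.

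The third comparison was between white fat after CL and brown fat after saline, in which tissue and treatment both differ. Here 13 of the 631 accessions were called (2.06%, against 3.5% of all probes tested), 4 higher in CL-treated white fat (0.634%, against 1.99%) and 9 lower (1.43%, against 1.51%). It shares the brown fat arrays with the first comparison, so the values of both are given side by side and are not independent.

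AI427689 and BB791535 differed most. AI427689 read -5.96 and -5.58 after CL, not above background, and lay at least 3.94-fold under its brown fat level (fitted difference -4.14, SE 0.43), with its test again entered through brown fat alone. With normexp correction this difference was -1.45, a smaller fold than the bound. The brown minus saline white difference of the same accession was 3.38. BB791535 read -5.08 and -3.46 after CL, not above background, and lay at least 12.7-fold under its brown fat level (fitted difference -4.34, SE 0.57, limma adjusted p = 0.0138). With normexp correction it was -2.26, also a smaller fold than the bound. Its brown minus saline white difference was 2.93. BB791535, which met the filter through saline white fat as well, stayed called in every alternative that tested it and in each fit that left out 1 array.

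CN690322, BQ031568 and CF786785 were likewise not above background on either CL array, met the filter through brown fat alone, and were at least 1.89-fold, 1.79-fold and 1.71-fold under their brown fat levels. BC128340, a cDNA prefix, was bright: 4.64 and 4.36 in brown fat, 2.32 and 2.83 in saline white fat, and 1.27 and 2.58 after CL. Its CL minus brown difference was -2.57 (SE 0.50) and its brown minus saline white difference 1.92, which missed the threshold (limma adjusted p = 0.0513). CJ087990, CA870816 and BB840167 completed the 9, with differences of -2.06, -2.02 and -1.86 against brown fat. In these 3 the saline and CL-treated white arrays overlapped.

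The 4 higher in CL-treated white fat than in brown fat were FJ387503 (at least 2.01-fold), DV645173 (1.96), BU518367 (1.87) and CK128313 (1.83), the last 3 as log2 differences. With normexp correction the difference of FJ387503 was 0.48, a smaller fold than its bound. CK128313 read -0.02 and 0.18 in brown fat, 1.51 and 1.57 in saline white fat and 1.75 and 2.06 after CL. In the cells it read 2.72, 2.50, 2.16 and 2.52, above all tissue arrays. BU518367 read -3.06 and -2.88 in brown fat, -1.90 and -2.01 in saline white fat and -1.10 and -1.09 after CL. In both accessions the 2 CL arrays were the highest of the 6 tissue arrays.

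The array that was left out moved this count widely. It was 5 and 6 without brown fat replicate 1 or 2 (0.752% and 0.940% of those tested, against 0.778% and 1.40% of all probes). It was 5 and 6 without saline white replicate 1 or 2 (0.707% and 0.927%, against 1.64% and 1.86%). It was 22 and 152 without CL replicate 1 or 2 (3.42% and 23.6%, against 5.76% and 26.0%). Without CL replicate 1 the balance turned, with 14 higher and 8 lower, against 1836 and 708 over all probes. With the arrays weighted by their spread, 2 were called, and with the 8 accessions set apart put back, 17 of 639. With the replicate number as a block, 20 were called. Among the 426 accessions above background on all 6 tissue arrays, 24 were called when those probes alone were adjusted for, against 7.11% of all such probes.

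Differentiating brown adipocytes were measured once per day, so their changes have no replicate check and no test. The terms raised and lowered are used for an RNA whose signals at days 3, 5 and 7 all differed from day 0 by 2-fold or more in the same direction. Of the 776 accessions detected above background in some cell array, 20 were raised (2.58%, against 5.36% of all probes measured) and 39 lowered (5.03%, against 6.2%). The split depended on the scaling: with each array's median as the reference it was 27 raised and 26 lowered, and with quantile normalization 30 and 29. Relative to the 75th percentile, the median difference of all probes measured was -0.16, -0.27 and -0.13 on days 3, 5 and 7. The accessions had medians of -0.23, -0.37 and -0.13.

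On single days, at least 2-fold above day 0 were 66 accessions at day 3 (8.51%, against 10.7% of all probes), 51 at day 5 (6.57% against 10.4%) and 43 at day 7 (5.54% against 9.58%). At least 2-fold below were 75 (9.66% against 10.5%), 162 (20.9% against 18.9%) and 74 (9.54% against 12.1%). Day 5 thus had more than double the lowered accessions of day 7. On that array 610 accessions were above background, the lowest number among the cells.

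Among the 562 accessions above background on all 4 cell arrays, 10 were raised (1.78%, against 5.34% of all such probes) and 15 lowered (2.67%, against 4.76%). AV271283 rose most, from 0.20 at day 0 to 3.59, 3.91 and 3.34, an 8.84-fold difference at day 7. In the tissues it read 3.32 and 3.14 in brown fat, 1.30 and 1.99 in saline white fat, and 0.69 and 1.66 after CL. The brown minus saline white difference of 1.58 (SE 0.46) missed the threshold (limma adjusted p = 0.0673).

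CN710360 was bright throughout, with 5.13 at day 0 and 7.95, 8.03 and 7.99 later, while its tissue readings lay between 4.94 and 6.82. BB649909 went from -3.18 to -0.94, -0.52 and -0.68, and U43317, a direct submission, from 1.00 to 2.25, 2.64 and 2.97. AA981261 went from 3.40 to 5.29, 5.68 and 5.30. The other raised accessions of this kind were AA856009, BB306094, DV646680, BX521937 and BC040767, with day 7 differences of 2.23, 1.87, 1.43, 1.38 and 1.00. BC040767 was thus at the 2-fold limit at day 7.

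AI506377 fell most among the 15 lowered, from -1.53 to -3.64 at day 7, a difference of -2.11. BE650901 and BE197847 had day 7 differences of -1.77 and -1.62. AV319250 read 6.22 at day 0 and 4.19, 4.77 and 4.81 later. BU961149 read 4.85 at day 0 and 2.69, 2.94 and 3.57 later, and BC098462, a cDNA prefix, 5.27 and then 3.72, 4.20 and 4.16. In 10 of all 39 lowered accessions day 7 had the lowest signal, in 16 it was day 3 and in 13 day 5. Of the 39, 19 were above background on no later day, so for these the order of the later days was not measured.

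**Figure D4:**
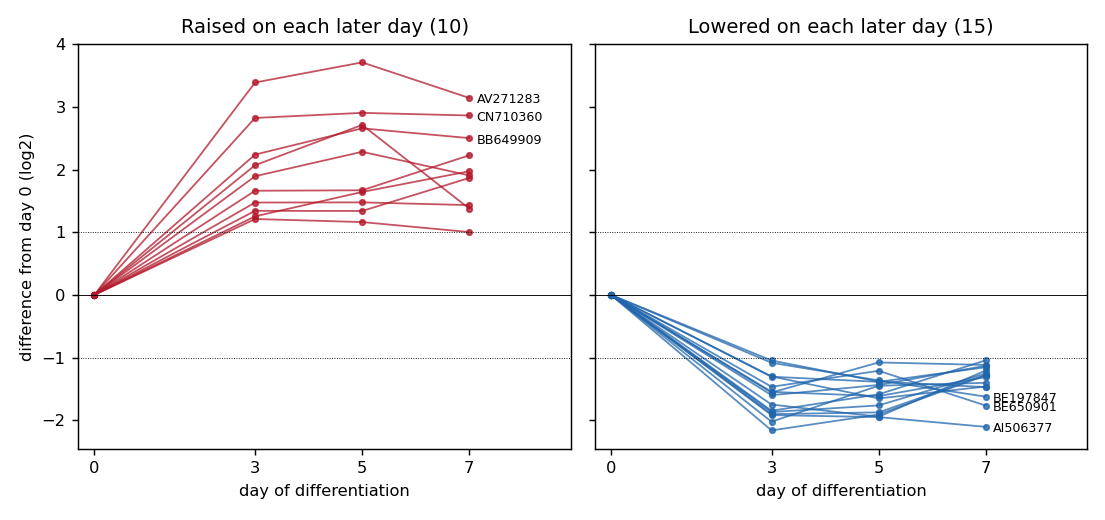
Difference from day 0 (y axis, log2) at days 0, 3, 5 and 7 of differentiation (x axis) for the 10 raised and 15 lowered accessions above background on all 4 cell arrays, with 1 array per day and 1 line per accession. Dotted lines mark a 2-fold difference. By the rule that chose them, all lines lie past it at days 3, 5 and 7. The raised lines reach further from 0 (up to 3.71 at day 5) than the lowered ones (down to -2.16 at day 3).

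Many of the larger fitted differences in the cells belonged to RNAs that were not above background at day 0 or later, for which only a bound can be given. BB691294 was at least 3.93-fold higher at day 7 than at day 0, BC060946 at least 2.41-fold, BB280416 at least 2.26-fold, BM935022 at least 1.60-fold, BI107540 at least 1.42-fold and AA522006 at least 1.05-fold. In all, 10 of the 20 raised accessions were not above background at day 0. In the other direction, 19 of the 39 lowered accessions were not above background on any later day.

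BY669304 was at least 2.55-fold lower at day 7, AA607596 at least 2.05-fold, CF616316 at least 1.69-fold, BU962981 at least 1.57-fold, AY339874 at least 1.55-fold and BY364745 at least 1.53-fold. CB840733, DV659241, CF424417 and AW826103 had bounds between 1.23 and 1.41. BU962981 was above background in brown fat (-2.27 and -1.43) and in saline white fat (-3.85 and -3.57), unlike BY669304, AA607596, AY339874, CB840733, BY364745 and DV659241, which were above background on no tissue array. With normexp correction, 16 accessions met the 2-fold rule, 10 raised and 6 lowered. The day 7 differences of BB691294 and BY669304 were then 0.98 and -0.91, smaller folds than their bounds.

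The tissue and cell results were then set side by side for the same accessions, over arrays they do not share. Of the 48 accessions higher in brown fat, 47 were measured in the cells, and 2 of these were raised during differentiation and 1 lowered. That is 4.26% and 2.13%, against 9.13% and 2.14% of all probes higher in brown fat. Of the 12 lower in brown fat, 11 were measured in the cells and 0 were raised or lowered, against 10.7% and 18.6% of all probes lower in brown fat. With counts this small no difference between the accessions and all probes was tested.

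AA856009 and BB306094 were the 2 that were higher in brown fat and raised in the cells. AA856009 read 7.87 and 7.86 in brown fat, 5.98 and 5.92 in saline white fat, and 6.06 and 7.06 after CL. Its difference between brown and saline white fat was 1.92 (SE 0.42, limma adjusted p = 0.0357), and in the cells it rose from 4.97 to 6.63, 6.64 and 7.19. BB306094 read 9.94 and 9.53 in brown fat, 7.74 and 7.96 in saline white fat, and 8.15 and 9.08 after CL.

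For BB306094 the difference between brown and saline white fat was 1.89 (SE 0.43, limma adjusted p = 0.0387), and in the cells it went from 6.92 to 8.27, 8.26 and 8.79. Both were above background on all 10 arrays and kept differences of 1.66 and 1.87 between brown and saline white fat with normexp correction. BB791535, named above for its brown fat excess, was lowered in the cells, from -1.58 at day 0 to -4.54, -4.51 and -3.72, with day 5 not above background.

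**Figure D5:**
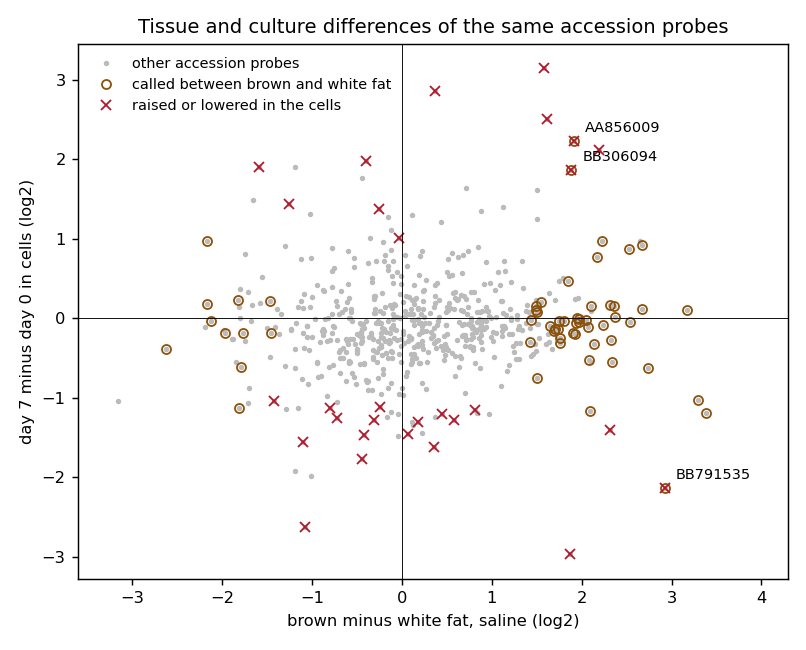
Day 7 minus day 0 in the cells (y axis, log2) against brown minus saline white fat (x axis, log2) for the 611 accessions tested in the tissues and detected above background in some cell array, with 1 point each. Circles mark the 58 called between brown and saline white fat, crosses the 29 raised or lowered in the cells, and the 3 accessions with both marks are named.

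Over the 420 accessions above background on all 10 arrays, the range from the lowest to the highest array had a median of 1.64, against 1.72 for all 29478 such probes. A range under 1, that is all 10 arrays within 2-fold, was found for 44 of them (10.5%, against 10.6% of all such probes). A range over 3 was found for 40 (9.52%, against 14.8%). BF466278 had the smallest range, 0.47, with every array between -1.57 and -1.09. BB633529 and CF585596 followed with ranges of 0.59 and 0.64.

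AV038163 had the largest range, 10.6. It read 9.77 and 9.71 in brown fat, 9.29 and 9.14 in saline white fat and 8.58 and 9.74 after CL, and -0.20, -0.74, -0.86 and 0.34 in the cells. The lowest tissue array was 8.24 above the highest cell array. BY223493 and BY732216 had the next largest ranges, 5.05 and 4.89, and also read higher on every tissue array than on every cell array.

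A gap of at least 2-fold between all tissue and all cell arrays was found for 10 of the 420. In 7 of them the tissues were higher (1.67%, against 1.86% of all such probes): AV038163, AA939626, BY223493, CK346856, AI551087, BY732216 and U43317. In BX520759, AA667816 and BI966292 the cells were higher (0.714%, against 1.31%). AA939626 read between 0.47 and 1.39 in the tissues and between -2.72 and -2.12 in the cells. BX520759 read between -2.50 and -1.28 in the tissues and between -0.05 and 0.29 in the cells. Since the tissue and cell arrays were on different slides, these gaps are given as measured.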

How the data were processed

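Spot intensity was deposited as scanner output of Agilent Feature Extraction, version 11.0.1.1 per the file headers (the submitters' processing notes name version 9.1), with flags for spots well above background and outlier spots. The deposited value table holds log2 values of 18997 probes, 519 of them accessions described here, all above background on at least 5 arrays; the authors' normalization and centring are unknown. The labels state that total RNA was turned into Cy3-labelled cRNA. Of 62513 spots per array, control spots and spots with outlier flags were dropped (3 accession values, AI642604, CF983472 and CX562415, all on brown fat replicate 2, which counted as not above background). Each array's 75th percentile of log2 processed signal was subtracted. One model with group means was fitted to the 6 tissue arrays with limma 3.58.1 (lmFit, eBayes) in R 4.3.3, with 3 residual degrees of freedom; p-values were two-sided and adjusted over 43525 probes. A fold against a group with no array above background is a bound from the lowest signal of probes well above background, or the probe's own if higher. Such a bound applies to these values only, and with normexp correction the fold can fall below it. The accessions, comparisons and alternatives were chosen with earlier results of these data known. Named are the 10 largest called differences each way, the 5 smallest p each way where none was called, the 10 largest cell changes each way, and the 3 smallest and 3 largest ranges; AA856009, BB306094, U43317 and others in short lists or on all 4 cell arrays were named after their values were seen. Microarrays limit precision through the number of arrays, 2 per tissue group and 1 per day.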

Additional observations from a re-analysis of the deposited data

How the results depend on the processing

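Signal over background limited the dim accessions, for which folds are bounds. The slide could not be fitted as a block because all 6 tissue arrays were on 1 slide. The cause of the changes below was not tested. For brown against saline white fat the main count of 60 became 235 with array weights, 115 in the deposited value table, 103 with median scaling, 15 with no filter, 201 with the 2 groups alone, 101 with quantile normalization, and 2 to 199 when 1 array was left out; normexp gave 66 and the filter on all 6 arrays 87. The share of all probes called moved along with that of the accessions tested. It was 37.4% with array weights (accessions 37.2%), 19.5% in the value table (22.3%) and 13.4% with median scaling (16.3%). With no filter it was 2.32% (accessions 1.35%), with quantile normalization 13.3% (16.0%) and with normexp 10.2% (10.5%). Quantile normalization shared 59 of the 60 and normexp 43. The sign of 59 of the 60 was kept throughout, and DV047736 reversed to 0.0596 with normexp. That correction moved the median brown minus white difference of all probes tested from -0.12 to 0.10. For CL against saline, the count stayed 0 except for 0 to 1 when 1 array was left out. For CL-treated white against brown fat the main count of 13 became 2 with array weights, 30 in the value table, 24 with median scaling, 4 with no filter, 20 with normexp, 39 with the 2 groups alone, 24 with the filter on all 6 arrays, and 5 to 152 when 1 array was left out. Median scaling called 5 higher and 19 lower. Array weights were 1.68, 1.86 and 0.319 for brown, saline white and CL-treated arrays. In the cells the main count of 59 became 16 with normexp, 25 in the value table, 25 with the filter on all 4 arrays, 123 at 1.5-fold and 23 at 3-fold. With another flag (positive and significant), 622 accessions passed on all 10 arrays in place of 420, and 420 to 447 did when 1 array was left out.

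Replicate numbers were not taken to pair the arrays, since the labels do not say that they do. The differences between replicates correlated at -0.02 between brown and saline white fat and -0.08 between brown and CL-treated white fat. Between saline and CL-treated white fat they correlated at 0.50. With the replicate block, 86 accessions were called between brown and saline white fat, 0 between CL and saline, and 20 between CL-treated white and brown fat. At an unadjusted limma p under 0.05 the block gave 39 accessions between CL and saline in place of 26 (6.18%, against 7.64% of all probes).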

Other observations

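Some accessions were bright on 1 array alone. CK385047 read 1.71 on brown fat replicate 1 and -6.27 on replicate 2, and between -6.98 and -5.02 on the other 8 arrays. CB573717 read 1.71 on brown fat replicate 2 and -4.75 on replicate 1, and between -6.33 and -4.87 on the others. CF616316, lowered in the cells, read -0.61 on brown fat replicate 2 and -4.98 on replicate 1. Of the accessions above background on at least 1 of 2 replicates, 25 of 621 in brown fat, 24 of 716 in saline white fat and 34 of 568 after CL lay at least 4-fold apart. With the replicate in which they were dim left out, CK385047 and CB573717 had brown minus saline white differences of 7.43 and 7.76. Each then met the filter through the 1 brown fat array in which it was bright, so these values are descriptions.

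CJ078842 and CJ083178, both above background on all 10 arrays, each read higher on every cell array than on every tissue array. CJ078842 lay between 1.55 and 2.65 in the tissues and between 3.62 and 4.16 in the cells, and CJ083178 between 1.82 and 2.94 and between 3.61 and 4.55. BB287387 lay between 3.67 and 4.79 in the tissues and between 5.51 and 6.86 in the cells, with day 0 the highest.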
